A study of Homo sapiens with 24 samples.

Results

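The cholesterol synthesis and uptake genes examined here are 28 human genes, taken as the rows of the deposited count table whose symbol is on a list of enzymes, regulators and transporters of the sterol pathway. All 28 were among the 60683 genes of the table, and 27 of them were among the 16196 genes with enough counts to be tested. The list holds 7 enzymes of the mevalonate steps (ACAT2, HMGCS1, MVK, PMVK, MVD, IDI1, FDPS), 11 enzymes of the squalene and sterol ring steps (FDFT1, SQLE, LSS, CYP51A1, TM7SF2, MSMO1, NSDHL, HSD17B7, EBP, SC5D, DHCR7), 5 regulators (SREBF2, SCAP, INSIG1, INSIG2, MYLIP) and 5 genes of uptake, transport and efflux (STARD4, NPC1, NPC2, NPC1L1, ABCA1). The member that could not be tested was INSIG1, with 2 reads in all 24 libraries together and 0 reads in 22 of them.

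Cholesterol is built from acetyl-CoA through mevalonate, isoprenoid units, squalene and lanosterol. The transcription factor SREBP-2, made from SREBF2, switches on nearly the whole route together with sterol uptake: SCAP escorts it out of the endoplasmic reticulum when sterols are scarce, and the INSIG proteins hold the SCAP and SREBP-2 complex back when sterols are plentiful. The liver is a main site of cholesterol synthesis in the body, and glucocorticoids act on liver metabolism through the glucocorticoid receptor, a hormone-activated transcription factor encoded by NR3C1.

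RNA came from HepG2, a human hepatocellular carcinoma line, with NR3C1 disrupted by CRISPR/Cas9 in all groups. A Ty1-tagged receptor was put back in all groups with a doxycycline-inducible lentivirus, as wild type (WT), as K154R, whose arginine cannot be acetylated, or as K154Q, whose glutamine mimics the acetylated lysine. Treatment lasted 6 h, with ethanol as vehicle or with the synthetic glucocorticoid dexamethasone at 1 µM, after 24 h of doxycycline at 0.3 to 1 µg/mL chosen to equalise receptor protein and 24 h without hormone in charcoal-stripped medium. Every group had 4 biological replicates from 2 experiments with 2 transductions each, which gave 24 libraries of poly(A) RNA. Which replicate number belongs to which experiment is not stated. No group without a receptor or without doxycycline was analysed here, so receptor expression from a virus is common to all values.

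Library totals ran from 23863672 to 42072021 counts, of which the 28 members took 0.175% to 0.239%. NR3C1 itself stood between 69.6 and 113 CPM (counts scaled to library size with TMM factors) over the 24 libraries, a value in which the disrupted gene and the viral copy cannot be told apart. FKBP5, a classical receptor target, rose in every genotype (average log2 fold change 1.06, edgeR adjusted p = 4.5e-12), with 44.1 to 58.1 CPM over the 12 vehicle libraries and 92.6 to 128 CPM over the 12 dexamethasone libraries. None of 9 hepatocyte markers was at 0, and their summed level ranged from 33670 to 43218 CPM over the groups. In WT the sums of the vehicle libraries, 35898 to 39041 CPM, all lay below those of the dexamethasone libraries, 39958 to 42806 CPM, while in K154R and K154Q the sums overlapped. The summed level of 7 markers of other cell types ranged from 1.45 to 3.25 CPM, and PTPRC and CD3E were at 0 in all libraries.

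The stretches before the transcription starts of 3 members, picked by their values, are shown first. NSDHL was the 1 member that passed the test in the average response without a replicate block. Of the regulators SREBF2 and INSIG2, the first was higher and the second lower under dexamethasone in every same-number difference. No response was tested against the letters of these stretches. They are the 250 bases before the first RefSeq start (GRCh38.p14, all on the + strand), for NSDHL at chrX:152830813-152831062, for SREBF2 at chr22:41832855-41833104 and for INSIG2 at chr2:118088221-118088470, printed 5′ to 3′. Capitals mark matches on either strand to CCAAT, the box bound by NF-Y, a factor that works with SREBPs, and to TCACNCCAC, a core of the sterol regulatory element.
NSDHL: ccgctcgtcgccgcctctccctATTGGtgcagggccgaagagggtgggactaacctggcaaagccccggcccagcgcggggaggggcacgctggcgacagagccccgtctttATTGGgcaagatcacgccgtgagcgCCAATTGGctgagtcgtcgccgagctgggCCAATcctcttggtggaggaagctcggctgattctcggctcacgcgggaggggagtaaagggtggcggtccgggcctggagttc
SREBF2: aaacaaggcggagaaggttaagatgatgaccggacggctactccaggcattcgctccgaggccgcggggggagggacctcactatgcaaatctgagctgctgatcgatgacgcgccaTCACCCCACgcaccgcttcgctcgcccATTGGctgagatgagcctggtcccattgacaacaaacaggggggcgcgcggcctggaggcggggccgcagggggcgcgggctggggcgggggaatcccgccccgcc
INSIG2: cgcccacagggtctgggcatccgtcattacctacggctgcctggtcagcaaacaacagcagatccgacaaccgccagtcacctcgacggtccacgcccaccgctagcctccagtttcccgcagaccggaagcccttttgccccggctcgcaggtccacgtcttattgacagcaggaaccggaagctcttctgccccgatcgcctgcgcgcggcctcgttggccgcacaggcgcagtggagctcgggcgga
The stretch of NSDHL held 5 CCAAT matches, of which those starting 113 and 110 bases before the start overlap. SREBF2 held 1 match to the sterol element core, 133 bases before its start, and 1 CCAAT match 106 bases before it, and INSIG2 held neither. The regulator SCAP, not printed here, was also higher in every same-number difference, and its stretch held neither match. RefSeq windows of 300 bases (250 before to 50 after a start) were found for 25 of the 28 members, 32 windows in all, and ACAT2, FDFT1 and SQLE had none. CCAAT was in 65.6% of the member windows against 34.6% of all 35116 windows, and the sterol element core in 3.12% (1 window, that of SREBF2) against 1.13%. A match is a run of letters, not a bound site. In GENCODE v29 the 3 genes start earlier, at 152830967 (NSDHL), 41833079 (SREBF2) and 118088452 (INSIG2). By that annotation the last part of each printed stretch lies inside the gene.

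With mean CPM divided by gene length, levels of the 27 measured members spanned from 36.3 CPM per kilobase for DHCR7, which makes the final reduction of one branch to cholesterol, to 0.696 for MYLIP, a ubiquitin ligase that removes lipoprotein receptors. DHCR7 was followed by SQLE at 35.6, MSMO1 at 35.2 and FDFT1 at 35.2 CPM per kilobase, and SDs of 5.09 to 7.19 over the 24 libraries exceeded the distances between these 4. SQLE adds oxygen to squalene, FDFT1 makes squalene, and MSMO1 works on the methyl groups of the sterol ring. The other ring enzymes followed at 24.4 for EBP, 21.6 for NSDHL, 20.5 for TM7SF2, 15.1 for LSS (the cyclase that makes lanosterol), 6.80 for SC5D, 3.52 for HSD17B7 and 2.01 CPM per kilobase for CYP51A1. Mevalonate enzymes lay between 25.2 for ACAT2, the cytosolic thiolase at the entry of the route, and 4.67 for MVK, with PMVK at 19.1, FDPS at 17.4, IDI1 at 16.3, HMGCS1 at 15.1 and MVD at 14.0 CPM per kilobase.

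Among the regulators, INSIG2 (28.7 CPM per kilobase), SCAP (23.3) and SREBF2 (23.0) were all in the upper part of the order. The lysosomal cholesterol carriers NPC2 and NPC1 stood at 26.4 and 9.09, the efflux pump ABCA1 at 10.9, the sterol importer NPC1L1 at 8.38 and the cytosolic sterol carrier STARD4 at 5.17 CPM per kilobase. A count of 0 allows up to 3 counts in a library, so INSIG1 was below detection in the 22 libraries at 0, by counting error alone. In GENCODE v29 (GRCh38) CYP51A1, the lanosterol demethylase, shares 79.4% of its exon bases with other genes on the same strand, and ACAT2 shares 52.3% with genes on the opposite strand. How the counting treated shared bases is not given in these sources, so the levels of CYP51A1 and ACAT2 are uncertain, as are those of FDPS and HSD17B7, which have 8 and 2 annotated pseudogenes. INSIG1 shares 0% of its exon bases, but the annotation release used for counting is not given either. Whether the counting missed reads of INSIG1 was not tested.

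**Figure D1:**
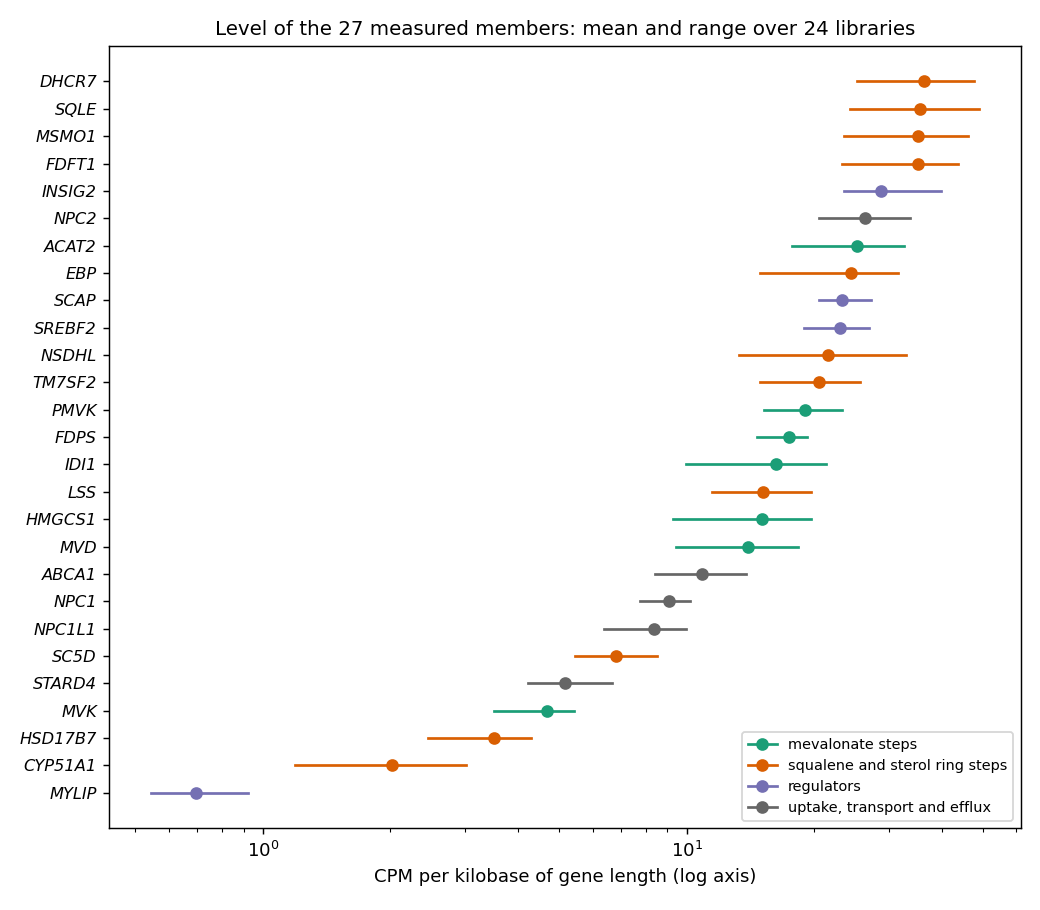
Level of the 27 measured members in CPM per kilobase of gene length (log axis), ordered by mean and coloured by role. Points are means and lines the lowest and highest of 24 libraries, and the order runs from DHCR7 at 36.3 to MYLIP at 0.696.

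The first question was whether dexamethasone moved these genes. NSDHL, the dehydrogenase that removes methyl groups from the sterol ring together with MSMO1 and HSD17B7, rose on average over the 3 genotypes, by 1.38 times. In the fit with the filter on low counts and without a replicate block, no other member passed the test in the average response. No member passed that test in a single genotype. Calls below are from this fit unless another is named. With the replicate number as a block 10 members passed in the average, where not every pair of same-numbered libraries deviated together. These 10 are named at the end, beside the calls over all genes. Most estimates other than that of NSDHL were small and above 0, with a median log2 fold change of 0.09 over the 27 members. INSIG2 had the lowest average estimate, at -0.14.

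The gene NSDHL lies at chrX:152830967-152869729 on the + strand (GENCODE v29, GRCh38). In WT cells it measured 34.0, 39.8, 26.5 and 37.1 CPM in vehicle replicates 1 to 4 and 43.4, 57.3, 42.5 and 46.4 CPM under dexamethasone. In K154R cells the values were 34.5, 50.6, 29.7 and 37.8 CPM in vehicle and 44.9, 65.8, 46.4 and 63.6 CPM under dexamethasone. In K154Q cells they were 36.9, 40.8, 26.8 and 38.9 CPM in vehicle and 42.8, 53.9, 39.0 and 55.1 CPM under dexamethasone. All 4 dexamethasone libraries were above all 4 vehicle libraries in WT, while in K154R and K154Q the groups overlapped, with vehicle replicate 2 above some dexamethasone libraries. NSDHL was the 1 member separated this way in WT, where 1.41% of all genes were, and SCAP was the 1 member in K154R, against 1.33% of all genes. Between libraries of the same number, NSDHL was higher under dexamethasone in 12 of 12 differences, by 0.21 to 0.75 on the log2 scale.

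The average log2 fold change of NSDHL was 0.47 (SE 0.10, 95% interval 0.27 to 0.67, edgeR quasi-likelihood test, adjusted p = 0.00945, n = 4 per group). In this average 172 genes, 1.06% of those tested, passed, 166 of them upward. Leaving out any single library kept NSDHL past the threshold (adjusted p from 0.00164 to 0.0222), but without all 6 libraries numbered 1 it was 0.52 (edgeR adjusted p = 0.0562), and without those numbered 4 it was 0.45 (adjusted p = 0.188). These p-values measure the spread between these cultures. In bulk RNA, fewer cells expressing a gene and less RNA per cell cannot be told apart.

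By genotype, NSDHL had a log2 fold change of 0.53 in K154R (SE 0.17, edgeR adjusted p = 0.502), 0.47 in WT (SE 0.17, adjusted p = 1.00) and 0.41 in K154Q (SE 0.17, adjusted p = 1.00). For K154R and K154Q every pair of same-numbered libraries deviated together, and with the replicate number as a block NSDHL passed in both (edgeR adjusted p = 6.36e-05 and 0.00282). Under the block 1.23% of all genes passed in K154R and 0.722% in K154Q, and NSDHL was the 1 member among them. Without the filter on low counts NSDHL also passed in each genotype (edgeR adjusted p = 0.0362 in K154Q, 0.000316 in K154R and 0.00469 in WT). By GENCODE v29 starts, the nearest protein-coding gene is CETN2, which begins 190 bases away on the opposite strand. Its average log2 fold change of 0.01 did not pass.

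**Figure D2:**
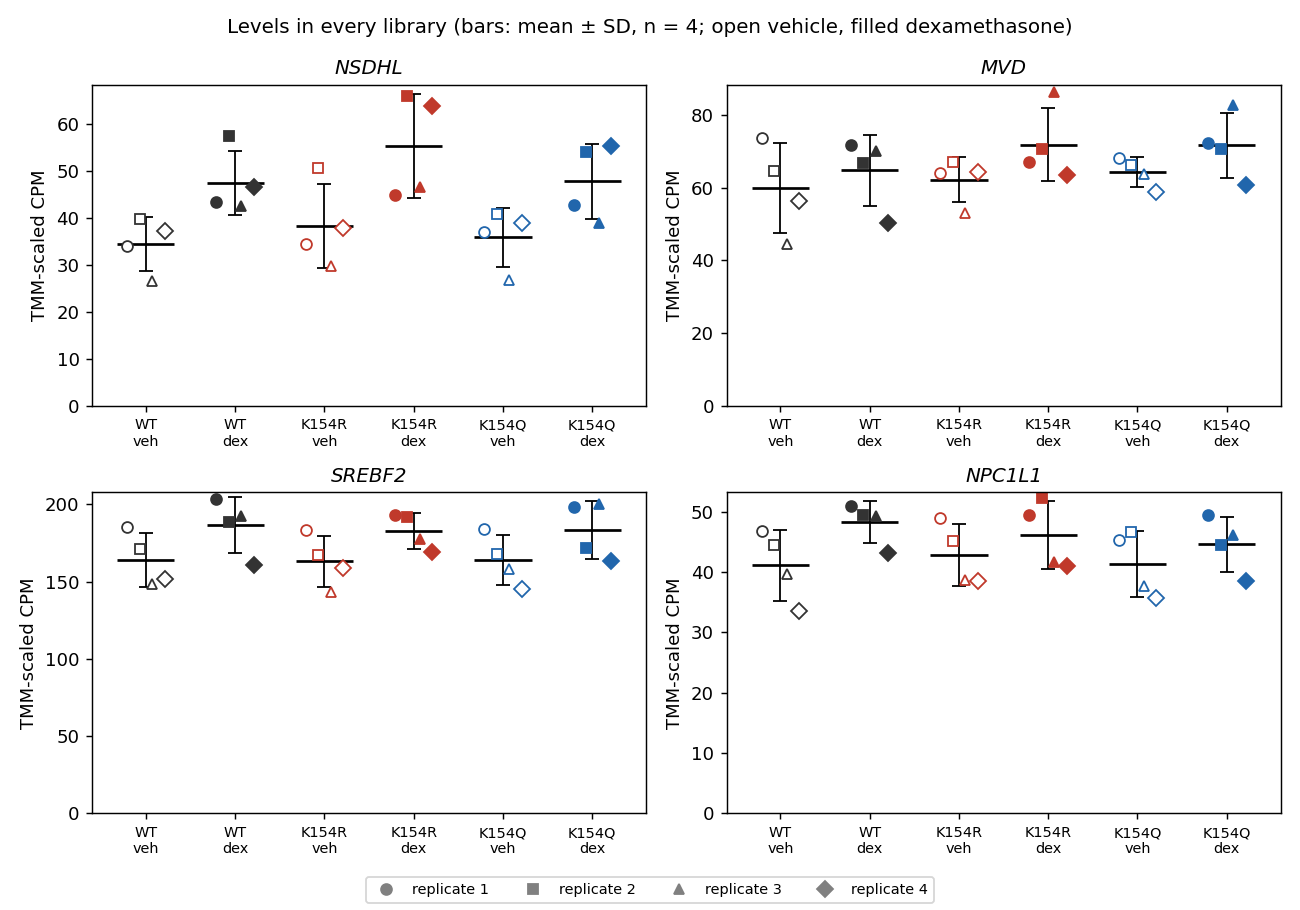
TMM-scaled CPM of NSDHL, MVD, SREBF2 and NPC1L1 in each library, by genotype and treatment (open vehicle, filled dexamethasone). Symbols mark replicate numbers, bars the mean ± SD of 4 libraries; in WT the 4 dexamethasone values of NSDHL, 42.5 to 57.3, lie above the vehicle values, 26.5 to 39.8.

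Over the whole list, 0 of 27 members passed in WT, where 0.161% of all genes passed, 0 in K154R against 0.309%, and 0 in K154Q against 0.13%. At an unadjusted p under 0.05, edgeR had 1 member in WT (NSDHL), 3 in K154R (NSDHL and SCAP higher, MYLIP lower) and 1 in K154Q (NSDHL). Of all genes 3.22%, 3.19% and 2.26% were at that threshold with edgeR. DESeq2 had 2, 3 and 1 members there, and 536, 490 and 348 genes in all. These counts are from fits without the block. Same-numbered libraries deviated together in K154R and K154Q, and there the blocked edgeR fit had more members at this threshold. In K154R 7 members were higher and 2 lower, against 8.05% of all genes in either direction. In K154Q 5 members were higher and 1 lower, against 6.24%. Of these members only NSDHL passed. In the average response without the block 8 members were at an unadjusted p under 0.05, where 7.01% of all genes were. All 8 were higher (NSDHL, SREBF2, SCAP, LSS, NPC1L1, MSMO1, DHCR7 and MVD). Median log2 fold changes of the members were 0.11 in WT, 0.11 in K154R and 0.08 in K154Q, where those of all genes tested were -0.010, -0.005 and -0.002. Estimates were above 0 for 24, 24 and 23 of the 27 members, or 88.9%, 88.9% and 85.2%, where 47.2%, 48.1% and 49.1% of all genes were. The 9 hepatocyte markers had 8, 4 and 3 estimates above 0, or 88.9%, 44.4% and 33.3%, with medians of 0.09, -0.02 and -0.02, so in WT their share was as high as that of the members. None of the 9 passed in a genotype (edgeR, 1, 0 and 0 at an unadjusted p under 0.05), and their part in the members' values was not tested. The 3 genotypes have their own vehicle libraries, but members of a pathway do not vary independently, so these shares are a description.

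**Figure D3:**
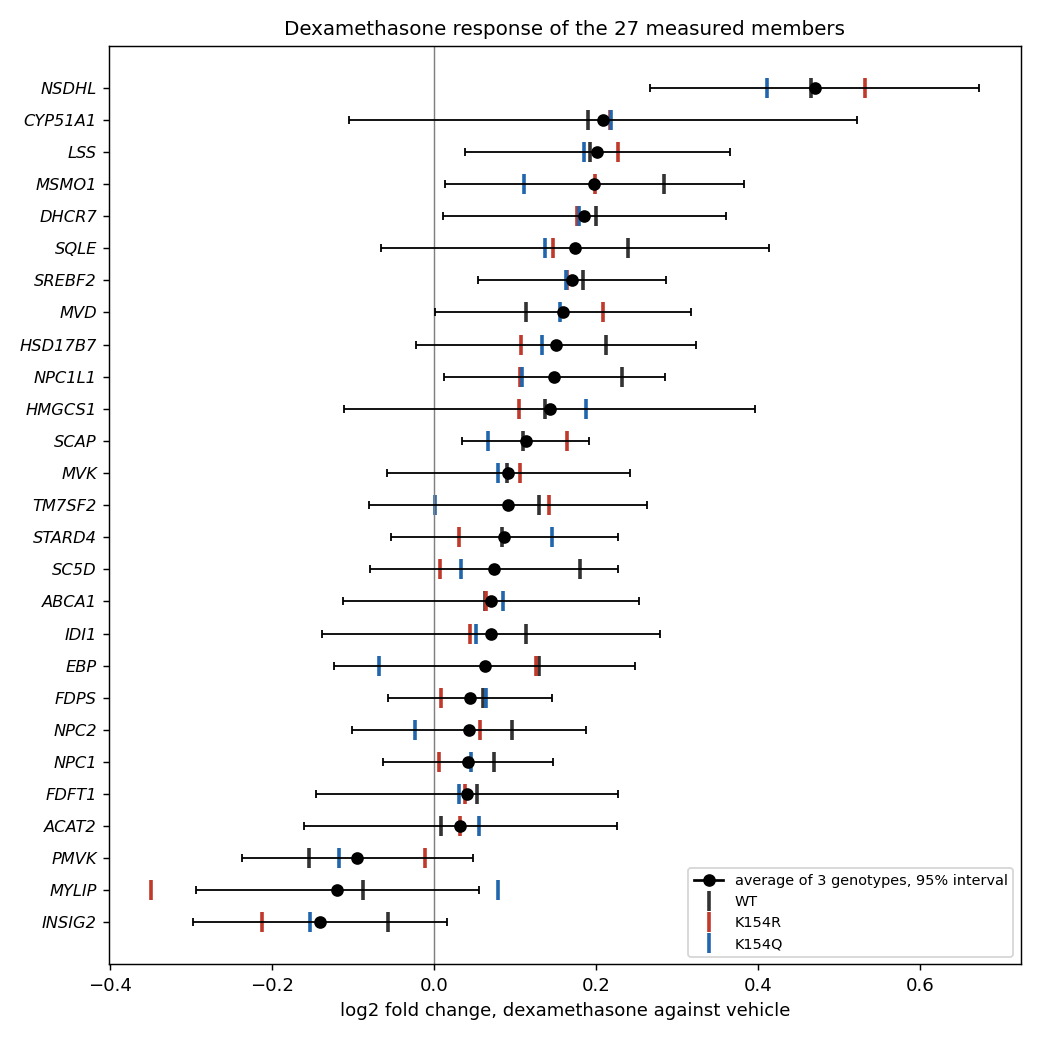
Log2 fold change of dexamethasone against vehicle for the 27 measured members: points with 95% intervals are the average of the 3 genotypes, ticks the single genotypes. NSDHL, at 0.47, stands to the right of the other members, and PMVK, MYLIP and INSIG2 have averages below 0.

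Of the 7 mevalonate enzymes 0 passed in the average response, 6 estimates were above 0 and the median was 0.07. MVD, which makes isopentenyl diphosphate, had the smallest p among them. In WT it measured 73.8, 64.8, 44.6 and 56.5 CPM in vehicle replicates 1 to 4 and 71.8, 66.9, 70.2 and 50.3 CPM under dexamethasone. In K154R it measured 64.2, 67.2, 53.2 and 64.4 CPM in vehicle and 67.1, 70.8, 86.2 and 63.5 CPM under dexamethasone. The K154Q values were 68.2, 66.4, 63.8 and 58.9 CPM in vehicle and 72.5, 70.8, 82.7 and 60.7 CPM under dexamethasone. Groups overlapped in every genotype, and the dexamethasone replicate 3 was the highest library in both mutants. The average log2 fold change of MVD was 0.16 (SE 0.08, edgeR adjusted p = 0.705), and without the libraries numbered 3 its WT estimate was -0.04.

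HMGCS1, the synthase that makes HMG-CoA, was taken up after its values were seen. Its WT vehicle libraries gave 123, 125, 61.6 and 76.6 CPM for replicates 1 to 4, and its dexamethasone libraries 130, 127, 90.0 and 76.8 CPM. In K154R the values were 112, 105, 72.5 and 81.0 CPM in vehicle and 112, 109, 94.2 and 82.9 CPM under dexamethasone. In K154Q they were 119, 107, 81.4 and 76.7 CPM in vehicle and 124, 120, 115 and 79.6 CPM under dexamethasone. Replicates 1 and 2 were high and 3 and 4 low in vehicle in all 3 genotypes, and the largest steps under dexamethasone were those of replicate 3. The average log2 fold change of HMGCS1 was 0.14 (SE 0.12, edgeR adjusted p = 0.888). The remaining mevalonate averages were 0.09 for MVK, 0.07 for IDI1, 0.04 for FDPS, 0.03 for ACAT2 and -0.09 for PMVK.

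All 11 enzymes of the squalene and sterol ring steps had average estimates above 0, with a median of 0.17, and NSDHL was the 1 that passed without the block. LSS, MSMO1, DHCR7, SQLE and HSD17B7 are among the members that passed with the block, named at the end. After NSDHL the averages were 0.21 for CYP51A1, 0.20 for LSS, 0.20 for MSMO1, 0.19 for DHCR7, 0.17 for SQLE, 0.15 for HSD17B7, 0.09 for TM7SF2, 0.07 for SC5D, 0.06 for EBP and 0.04 for FDFT1. LSS, also taken up after its values were seen, measured 121, 114, 87.8 and 83.3 CPM in WT vehicle and 125, 118, 122 and 97.9 CPM in WT dexamethasone. Its K154R values were 116, 104, 84.8 and 90.0 CPM in vehicle and 121, 120, 125 and 95.9 CPM under dexamethasone. Its K154Q values were 113, 119, 102 and 87.1 CPM in vehicle and 124, 120, 142 and 93.8 CPM under dexamethasone. Groups overlapped in each genotype, with replicate 4 the lowest dexamethasone library in all 3. The average of LSS did not pass (SE 0.08, edgeR adjusted p = 0.489).

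MSMO1, which acts on the same methyl groups as NSDHL, measured 90.4 ± 19.6 CPM in vehicle and 110 ± 18.8 CPM under dexamethasone in WT (mean ± SD, n = 4), 97.9 ± 16.1 and 112 ± 12.7 CPM in K154R, and 92.3 ± 18.5 and 99.8 ± 6.52 CPM in K154Q. DHCR7 ranged from 114 to 166 CPM in vehicle and from 127 to 193 CPM under dexamethasone in WT, from 117 to 177 and 147 to 196 CPM in K154R, and from 104 to 155 and 136 to 162 CPM in K154Q. The groups of both genes overlapped in each genotype, and neither average passed (edgeR adjusted p = 0.631 for MSMO1 and 0.636 for DHCR7). In all 3 genotypes the lowest vehicle library of both genes was replicate 3.

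Of the 4 measured regulators 0 passed without the block, 2 had average estimates above 0, and the median was -0.003. SREBF2, SCAP and INSIG2 are among the members that passed with the block, named at the end beside the calls over all genes. SREBF2 measured 185, 171, 148 and 152 CPM in WT vehicle replicates 1 to 4 and 204, 189, 192 and 161 CPM in WT dexamethasone. The K154R libraries gave 183, 167, 143 and 159 CPM in vehicle and 193, 192, 177 and 169 CPM under dexamethasone. The K154Q libraries gave 184, 168, 158 and 145 CPM in vehicle and 198, 172, 200.4 and 163 CPM under dexamethasone. Vehicle replicate 1 reached into the dexamethasone range in each genotype, so the groups overlapped. The average log2 fold change of SREBF2 was 0.17 (SE 0.06, 95% interval 0.05 to 0.29), with an edgeR adjusted p of 0.253. SCAP, whose libraries were close together (141 to 146 CPM in K154R vehicle and 146 to 171 CPM in K154R dexamethasone), had an average of 0.11 (SE 0.04, edgeR adjusted p = 0.270). In WT and K154Q its treatment groups overlapped, at 132 to 150 against 145 to 157 CPM and at 129 to 147 against 132 to 156 CPM.

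INSIG2, chosen after its values were seen, was at 103, 112, 121 and 139 CPM in WT vehicle replicates 1 to 4 and at 95.4, 108, 117 and 136 CPM in WT dexamethasone. In K154R it was at 105, 113, 125 and 157 CPM in vehicle and 93.0, 108, 99.7 and 130 CPM under dexamethasone. In K154Q it was at 108, 103, 111 and 132 CPM in vehicle and 92.9, 99.4, 97.2 and 118 CPM under dexamethasone. Replicate 4 was the highest library of all 6 groups, and each dexamethasone library was below the vehicle library of its number, with log2 differences of -0.32 to -0.03. The groups overlapped, and the average of -0.14 did not pass (SE 0.08, 95% interval -0.30 to 0.02, edgeR adjusted p = 0.771). MYLIP had an average of -0.12 (SE 0.08), made of -0.35 in K154R, -0.09 in WT and 0.08 in K154Q. Its level was between 1.67 and 2.83 CPM in all 24 libraries, and the K154R groups overlapped, with vehicle replicate 4 at the lower end.

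**Figure D4:**
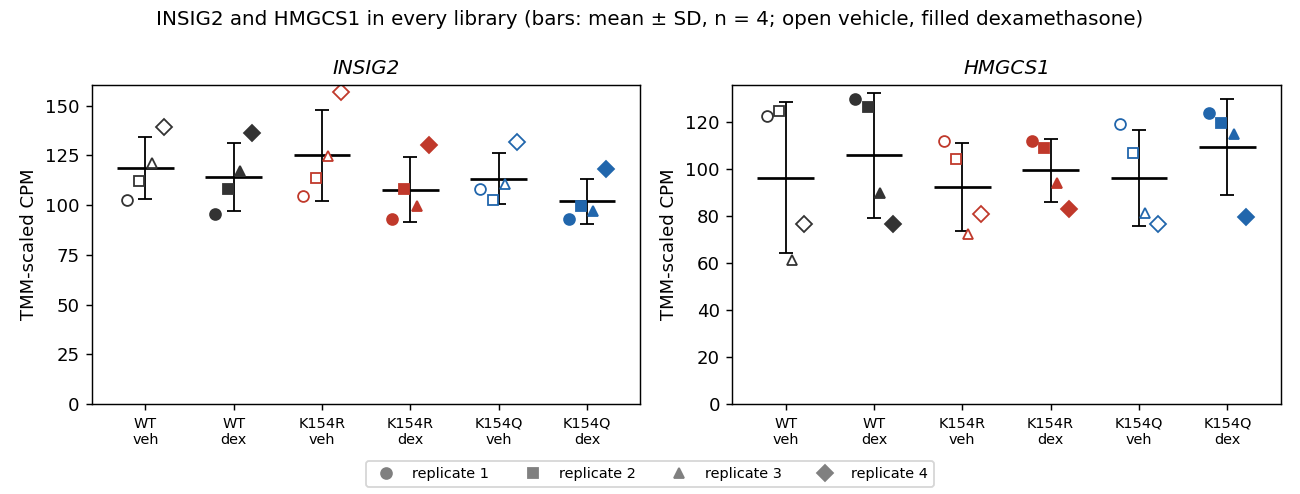
TMM-scaled CPM of INSIG2 and HMGCS1 in each library, by genotype and treatment (open vehicle, filled dexamethasone), with bars for the mean ± SD of 4 libraries. Replicate 4 (diamonds) is the highest for INSIG2 in all 6 groups, and replicates 3 and 4 are the lowest vehicle libraries for HMGCS1.

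The 5 genes of uptake, transport and efflux had averages of 0.15 for NPC1L1, 0.09 for STARD4, 0.07 for ABCA1, 0.04 for NPC2 and 0.04 for NPC1. Without the block 0 passed, and NPC1L1 is among the members that passed with it, named at the end. ABCA1, for example, measured 125 ± 19.8 CPM in vehicle and 131 ± 16.4 CPM under dexamethasone in WT (mean ± SD, n = 4), 118 ± 20.5 and 123 ± 26.5 CPM in K154R, and 116 ± 18.8 and 123 ± 17.5 CPM in K154Q. NPC1L1 measured 46.7, 44.4, 39.7 and 33.4 CPM in WT vehicle and 51.0, 49.5, 49.3 and 43.1 CPM in WT dexamethasone. In K154R it measured 48.9, 45.1, 38.6 and 38.4 CPM in vehicle and 49.5, 52.2, 41.6 and 41.0 CPM under dexamethasone. In K154Q it measured 45.3, 46.6, 37.7 and 35.7 CPM in vehicle and 49.3, 44.5, 46.0 and 38.4 CPM under dexamethasone. Replicate 4 was the lowest library in all 6 groups, and the treatment groups overlapped throughout. The average of NPC1L1 did not pass (SE 0.07, edgeR adjusted p = 0.620).

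A second question was whether the response depended on the receptor's residue. Of the 27 members 0 differed in response between K154R and WT, between K154Q and WT or between K154Q and K154R, and 0% of all genes did in each of the 3 comparisons, with edgeR or DESeq2. At an unadjusted p under 0.05 edgeR had 0 members in each and 115, 145 and 99 genes in all, without the block. With the block 1 regulator was at that threshold for K154Q minus K154R, and it did not pass. The share of all genes there was not computed. For NSDHL the difference in log2 response was 0.07 for K154R minus WT (95% interval -0.43 to 0.56), -0.05 for K154Q minus WT (-0.55 to 0.44) and -0.12 for K154Q minus K154R (-0.62 to 0.37). These intervals come from the fit without a replicate block. For K154Q minus K154R, where every pair of same-numbered libraries deviated together, the block gave -0.13 (-0.34 to 0.09), which did not pass either (edgeR adjusted p = 1.00). The widest gap among members was that of MYLIP between K154Q and K154R, at 0.43 (95% interval -0.000322 to 0.86, edgeR adjusted p = 1.00).

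Levels were also compared between genotypes within each treatment. In vehicle 0 members and 0% of all genes differed between K154R and WT, between K154Q and WT and between both mutants, where edgeR had 221, 165 and 207 genes and 0 members at an unadjusted p under 0.05. With the replicate number as a block 1 regulator was at that threshold, lower in K154Q than in K154R. The share of all genes there was not computed. Under dexamethasone 0 members and 0% of all genes differed in the same 3 comparisons, where 253, 243 and 486 genes were at an unadjusted p under 0.05. Among these last 486 were 2 members, both lower in K154Q than in K154R: EBP, the sterol isomerase, at a log2 difference of -0.38 (95% interval -0.71 to -0.06), and SCAP at -0.16 (-0.29 to -0.02). Same-numbered libraries deviated together in this comparison too. With the block 5 members were at an unadjusted p under 0.05 (edgeR), all lower in K154Q (EBP, SCAP, NSDHL, NPC2 and TM7SF2). Of all genes 11.2% were at that threshold, in either direction. Of the 5 members 0 passed (smallest edgeR adjusted p = 0.210), where 0.0123% of all genes passed. DESeq2 called 0 members in all 6. Median log2 differences of the members lay between -0.04 and 0.06 over these 6 comparisons.

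Members were also compared over replicate numbers. In vehicle, 10 of the 27 members (HMGCS1, MVK, IDI1, SQLE, LSS, CYP51A1, HSD17B7, DHCR7, SREBF2 and NPC1L1) had all 6 libraries numbered 1 and 2 above all 6 numbered 3 and 4, or 37%, against 2.13% of all genes, and 0 had the reverse. This split was chosen after the values were seen. SQLE, for example, ranged from 153 to 189 CPM over the vehicle libraries numbered 1 and 2 and from 105 to 133 CPM over those numbered 3 and 4. Vehicle libraries numbered 3 had the lowest mean for 17 of the 27 members, and the share of all genes with this pattern was not computed. The choice of the list used no replicate number.

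The size of the same-number differences followed the replicate number as well. In WT the median over the 27 members of dexamethasone minus vehicle was 0.07, 0.14, 0.34 and 0.005 on the log2 scale for numbers 1 to 4. It was 0.06, 0.06, 0.29 and 0.03 in K154R and 0.008, 0.05, 0.29 and 0.08 in K154Q. Number 3, whose vehicle libraries were low, had the highest median in each genotype, while medians over all genes stayed between -0.012 and 0.007. The same vehicle libraries enter the levels and these differences, so the patterns are not independent of each other. Without all libraries numbered 3 the median fitted response of the members was 0.10 in WT, 0.04 in K154R, 0.05 in K154Q and 0.05 on average. The part of experiment, transduction or culture in these numbers was not tested.

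**Figure D5:**
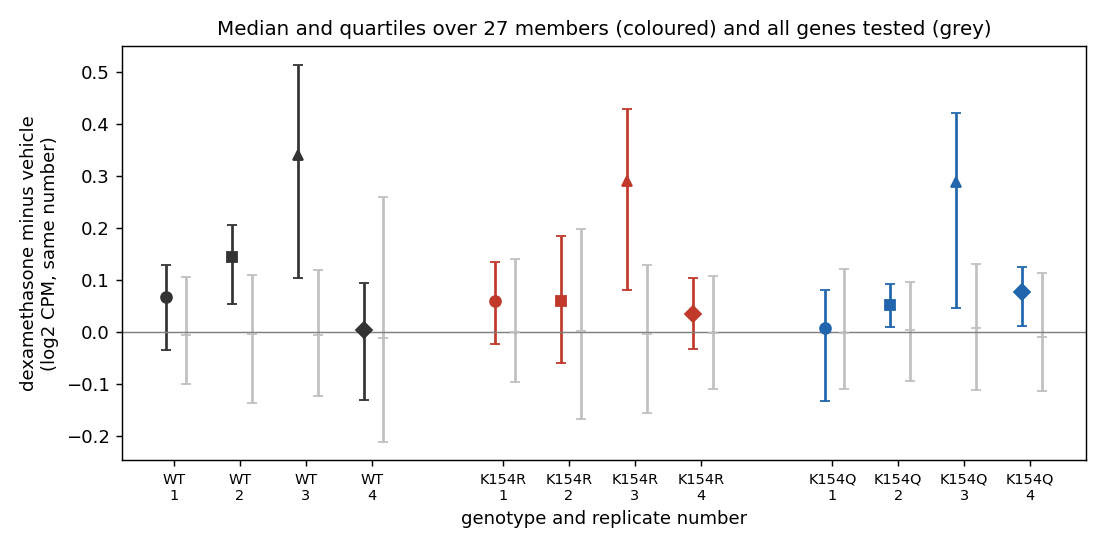
Difference between dexamethasone and vehicle libraries of the same replicate number (log2 CPM), by genotype and number: points and bars are the median and quartiles over the 27 members, grey those over all genes tested. Number 3 has the highest median in all 3 genotypes (0.34, 0.29 and 0.29), and grey medians lie at about 0.

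Despite these differences in size, 6 members were higher under dexamethasone in 12 of 12 same-number differences: HMGCS1, LSS, NSDHL, DHCR7, SREBF2 and SCAP. The smallest of these differences were close to 0, for HMGCS1 (0.00054), SCAP (0.003) and LSS (0.0055). Of all genes tested 1.93% were. INSIG2 was the 1 member below vehicle in 12 of 12, as were 0.531% of all genes. PMVK was higher in 3 of 12, MYLIP in 5 and FDFT1 in 5.

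Genes around the pathway were taken from lists as well. Of 20 related sterol genes 19 were tested and 0 passed in the average response without the block (edgeR, 0 at an unadjusted p under 0.05). With the block 1 passed (edgeR adjusted p = 0.0412). Of these related genes 14 had estimates above 0, or 73.7%, against 47.7% of all genes, with a median of 0.05. Among them SREBF1, which encodes the sister factor of SREBP-2, was at 0.03, the protease genes MBTPS1 and MBTPS2, whose products release SREBPs, were both at 0.06, and SCARB1, the receptor that takes up cholesterol esters from HDL, was at 0.08. Of 10 fatty acid synthesis genes 9 were tested and 0 passed (0 at an unadjusted p under 0.05), with 9 estimates above 0 and a median of 0.06, FASN at 0.06 and SCD at 0.11.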

How the data were processed

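Poly(A) RNA of 24 HepG2 cultures in 6 groups of 4 was sequenced from 300 ng of input at an RNA integrity of 8.6 or more, per the labels' protocols. The authors deposited raw read counts per gene, not normalized. Per the submitters' processing notes the tools were bcl2fastq 2.20.0.422, cutadapt 3.7, STAR 2.7.6a and featureCounts 2.0.3, with GRCh38.p13; annotation release, strand setting and treatment of multi-mapping or shared bases were not given in the sources used here.

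Groups came from sample titles. In R 4.3.3, counts were fitted with edgeR 4.0.16 (limma 3.58.1): filterByExpr kept 16196 genes, TMM scaled the libraries, and a quasi-likelihood model with 6 group means and no block was fitted to all 24 libraries. The 13 contrasts were Benjamini-Hochberg adjusted over all genes, at a threshold of 0.05. SE is the absolute log2 fold change over the root of F. The average response weighs the 3 genotypes equally. Log2 CPM of single libraries used a prior count of 2. The scripts were tested on simulated data.

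Members, lists and tests were chosen with earlier results of these data known. The rule for named genes gave every member a level, and values by library to members called in a response and to the smallest average-response p of each role. HMGCS1, LSS, SQLE, INSIG2, MSMO1, DHCR7, SCAP, MYLIP and ABCA1 were described beyond it after their values were seen.

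Replicate numbers were checked for pairing by the correlation of deviations from group means. Of 60 same-number pairs 55 exceeded 0.1 (median r 0.347, against -0.126 for different numbers). All pairs did for the K154R response (lowest r 0.264) and the K154Q response (0.381), for the difference of these responses (0.183), for the 3 vehicle comparisons (0.310, 0.306 and 0.265) and for K154Q minus K154R under dexamethasone (0.183), but not in WT (3 of 4, lowest 0.0504), over all or in the other comparisons. Blocked values are given where the numbers pair libraries and the block changes a call or a count of members. Replicates differed beyond sampling noise (lowest chi-square per degree of freedom 12.5), so no library was taken for a second deposit of another. Alternatives were DESeq2 1.42.0, RLE size factors, the block, all genes without the filter, fits of only the groups compared, and each library left out; leaving out a whole replicate number was chosen after seeing the data.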

Additional observations from a re-analysis of the deposited data

Results flagged for a closer look

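In 6 of the 162 groups of 4 libraries examined over the 27 members, 1 library stood far from the other 3 by Dixon's test at the 95% level. Chance alone gives such a gap in about 1 in 20 groups. PMVK was at 19.6 CPM in WT dexamethasone replicate 2, where the others were at 17.1 to 17.5 CPM, and at 15.2 CPM in K154R dexamethasone replicate 1, where the others were at 20.6 to 21.1 CPM. TM7SF2 was at 51.2 CPM in K154Q vehicle replicate 3, against 70.8 to 73.5 CPM. EBP was at 34.4 CPM in WT vehicle replicate 3, against 42.4 to 43.9 CPM, and at 52.0 CPM in WT dexamethasone replicate 2, against 41.4 to 43.0 CPM. MYLIP was at 2.39 CPM in K154Q dexamethasone replicate 3, against 2.08 to 2.11 CPM. None of these 4 genes passed the edgeR test in a dexamethasone response.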

How the results depend on the processing

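INSIG1, with 2 reads in all, did not pass the filter on low counts. NSDHL kept an average log2 fold change of 0.43 to 0.53 in every fit tried, and passed with RLE size factors, no filter, the replicate block, DESeq2 (adjusted p = 0.000341) and in all 24 fits that left out 1 library. It did not pass without all libraries numbered 1 (0.52, edgeR adjusted p = 0.0562) or numbered 4 (0.45, adjusted p = 0.188), where 0 members passed, and it passed without numbers 2 or 3 (adjusted p = 0.0180 and 0.0207).

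Without the filter 1 member passed in WT, 1 in K154R and 1 in K154Q, NSDHL each time, and the calls over all genes were 78, 109 and 72 in place of 26, 50 and 21, and 325 in place of 172 in the average. DESeq2 called 0 members in each genotype and 55, 77, 47 and 256 genes. With the replicate number as a block, 2 members passed in WT (NSDHL and NPC1L1, of 128 genes), 1 in K154R, 1 in K154Q and 10 in the average response (SQLE, LSS, MSMO1, NSDHL, HSD17B7, DHCR7, SREBF2, SCAP, INSIG2 and NPC1L1, of 685 genes). In WT and in the average the numbers did not meet the criterion for pairing. The block changed no other call of members. Fits of only the groups compared kept the counts of members and called 16, 24 and 12 genes.

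The WT estimate of HMGCS1 ranged from -0.010 (without vehicle replicate 3) to 0.29 when 1 library was left out. That of INSIG2 ranged from -0.14 to 0.040, and was 0.040 without vehicle replicate 4 and 0.025 without dexamethasone replicate 1. That of MVD was -0.044 without all libraries numbered 3. The cause was not tested.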
